A study of Mus musculus with 24 samples.

Results

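The response of mouse bone marrow-derived macrophages to transforming growth factor-β1 (TGF-β1) was measured as the average difference between 12 treated and 12 untreated libraries, with the genotype as a block so that each treated library is compared within its own genotype. All 24 libraries of the series enter, 6 from each of 4 genotypes. Polyadenylated RNA was sequenced, and the readout is the count of reads per gene.

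TGF-β1 is a secreted cytokine that binds a pair of receptor kinases, which phosphorylate the receptor-activated SMAD proteins SMAD2 and SMAD3. These join SMAD4, enter the nucleus and act on gene promoters and enhancers, and among their best known targets are inhibitors of the pathway itself, such as the inhibitory SMAD proteins. In macrophages TGF-β is known to restrain inflammatory gene expression and to favour repair and matrix turnover, and in the brain it maintains the identity of microglia.

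All mice were described as C57BL/6 and 2 to 3 months old. Tibial marrow cells were grown into adherent macrophages with IL-3 and the growth factor CSF-1, kept without serum for about 16 hours, and then left alone or given 10 ng/ml TGF-β1 for 4 hours. The genotypes are Smad2fl (both Smad2 alleles flanked by loxP sites, with no recombinase), MyS2KO (Smad2fl with LyzM-Cre), Smad3fl (both Smad3 alleles floxed) and MyS3KO (Smad3fl with LyzM-Cre), each with 3 untreated and 3 treated libraries. LyzM-Cre is a recombinase driven by the lysozyme gene Lyz2 in myeloid cells, so deletion depends on that promoter being active, and every library carries floxed alleles. No source used here ties libraries to single animals, and the protocol speaks of 8 libraries where 24 were deposited. The p-values therefore measure the spread between libraries, and what part of it is technical is not known. In the Smad3 line, libraries of the same group differed in background markers, as given below. The main tests do not use the library numbers.

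The targeted genes were looked at first. Smad2 (ENSMUSG00000024563, chr18:76241580-76305731) stood at 45.4, 39.6 and 41.5 CPM (read counts scaled to the same library total) in untreated and 39.05, 35.9 and 38.2 in treated Smad2fl, and at 41.7, 42.5 and 37.1 and 38.7, 47.2 and 34.9 in the libraries labelled MyS2KO. The groups overlap, so whole-gene counts do not show the deletion there, and the group is called by its label. Smad3 (ENSMUSG00000032402, chr9:63646767-63757994) was at 443, 459.7 and 369 CPM in untreated Smad3fl against 209, 181 and 161 in untreated MyS3KO, and at 404, 441 and 399 against 289, 249 and 265 under TGF-β1, lower in each MyS3KO library than in any Smad3fl library but still present. The lines differ more than these groups do: Smad3 was at 40.6, 45.8 and 37.96 CPM untreated against 54.2, 66.6 and 50.6 treated in Smad2fl and 33.98, 26.4 and 33.3 CPM untreated against 48.7, 46.6 and 52.8 treated in the libraries labelled MyS2KO, below every MyS3KO library. Smad3 is thus lower in MyS3KO only in comparison with its own floxed line. On average over the genotypes TGF-β1 raised Smad3 itself (0.41 ± 0.08, adjusted p = 0.000446). It did not rise in Smad3fl, where its mean was 424 CPM untreated and 415 treated. Smad4 did not pass the test (-0.05 ± 0.05, adjusted p = 0.491). Values of this form are log2 changes ± their standard error (SE). Smad2 did not pass either (-0.15 ± 0.06, adjusted p = 0.0623), but it did under several alternatives. These were DESeq2 (adjusted p = 0.0204), upper-quartile factors (0.0278), the library number within each genotype as a block (0.0311) and leaving out MyS2KO (0.0156). It also passed without some single libraries, with the lowest adjusted p (0.00732) without treated MyS2KO number 2.

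Libraries held 16868501 to 24918582 reads. Macrophage markers were high in both arms: Adgre1 lay at 8788 to 15898 CPM (median 10908) untreated and 8276 to 12686 CPM (median 8893) treated, and Csf1r had medians of 1703 and 2095 CPM. Of 10 library-level values compared by exact permutation within genotypes (depth, scaling factor, mitochondrial and ribosomal shares and 6 marker sums of other cells), none passed after adjustment. The lowest raw p, 0.0057875 (adjusted 0.0579), belonged to 12 neutrophil markers, whose sum was 304 to 572 CPM untreated and 262 to 534 treated; 1 of its 8 tested members was called lower and none higher. Its part in the results below was not tested, and in bulk samples fewer cells of a type and less RNA per cell cannot be told apart. Libraries of the Smad3 line are not alike in background markers: Ifi202b stood at 68.8 to 104 CPM in MyS3KO numbers 2 and 3 but at 1.25 and 0.490 in number 1, and Trim12a at 38.7 to 73.1 in Smad3fl numbers 1 and 2 but at 0.422 and 0.839 in number 3. With both Smad3fl libraries numbered 3 left out, 4073 genes were called in the average response, and with both MyS3KO libraries numbered 1 left out, 4947, beside 4314 with all libraries.

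TGF-β1 changed the RNA of 4314 of 14261 tested genes on average, 30.3% of them (edgeR quasi-likelihood test, adjusted p under 0.05): 2306 were higher (16.2%) and 2008 lower (14.1%). Large changes were mostly increases. At least a 2-fold rise was called for 623 genes (4.37%) and at least a 2-fold fall for 204 (1.43%), and at least 4-fold changes for 144 raised genes against 8 lowered ones. The median size of a called change was 0.62 on the log2 scale among raised genes and 0.44 among lowered ones, and the median over all tested genes was -0.01. In a principal component analysis of log CPM with each genotype centred on its own mean, the first component (26.1% of the variance) had all 12 untreated libraries on one side of 0 and all 12 treated on the other.

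Agreement over the genotypes was wide in direction and narrower in single tests. Among genes called higher, 2137 of 2306 (92.7%) had a positive change in all 4 genotypes, and among those called lower 1897 of 2008 (94.5%) had a negative change in all 4; the share with 1 sign in all 4 over all genes tested was 43.4%. These libraries also chose the genes, so the shares are descriptions. The change of each single genotype, tested within the fit to all 24 libraries, was called for fewer genes. These were 1713 in Smad3fl (12%; 6.37% higher and 5.64% lower), 1584 in Smad2fl (11.1%; 7.37% and 3.74%), 1428 in MyS3KO (10%; 6.54% and 3.47%) and 486 in the libraries labelled MyS2KO (3.41%; 2.9% and 0.505%). Of the raised genes 343 were called in each of the 4 genotypes and 910 in none of them, and of the lowered genes 60 and 996. Treated and untreated libraries did not overlap within any genotype for 630 genes with treatment higher (4.42%) and 271 with treatment lower (1.9%), and all 12 treated libraries stood above all 12 untreated for 267 (1.87%) and below them for 51 (0.358%).

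**Figure D1:**
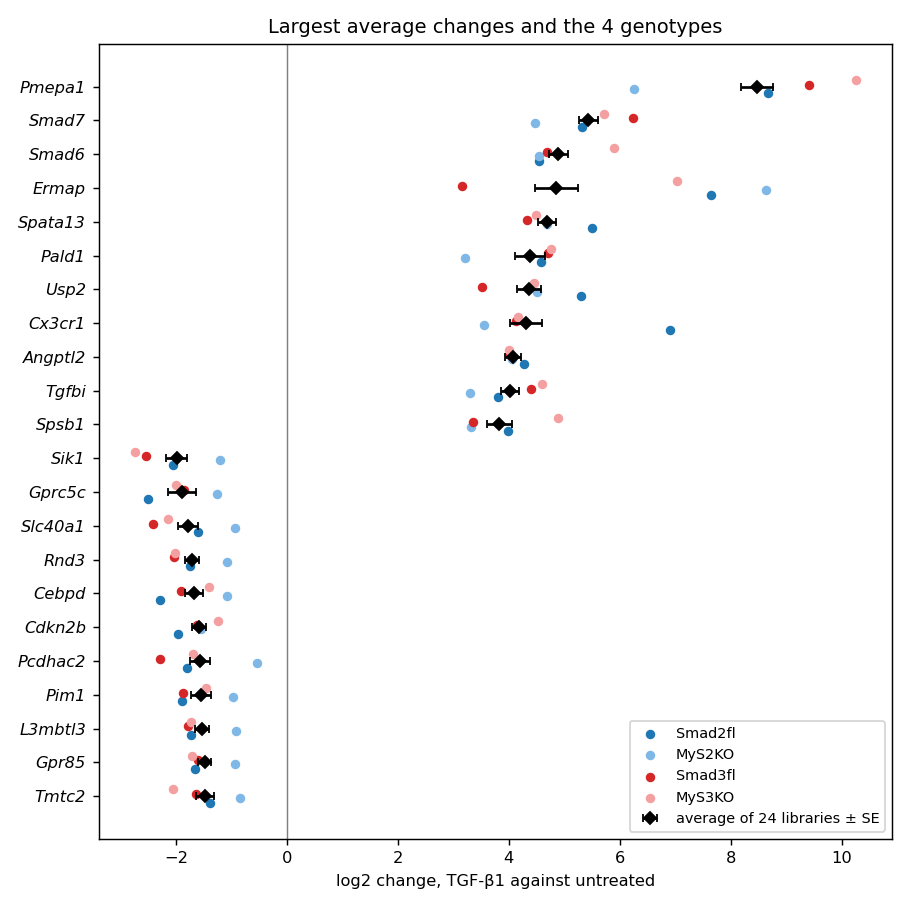
Log2 change under TGF-β1 (horizontal axis) of genes among the 12 raised and 12 lowered with the largest average change and no overlap of arms within any genotype; diamonds are the average over 24 libraries with its SE and coloured points the 4 genotypes. All 4 points of each gene lie on the side of the average, and the raised genes reach 8.47 while the lowered ones reach -1.99.

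The genes with the largest increases were led by inhibitors of the pathway itself. Pmepa1 (ENSMUSG00000038400, chr2:173224458-173276533), whose protein holds back receptor-activated SMADs, was at 0 to 0.242 CPM (median 0.0460) in the untreated libraries and 7.97 to 44.4 CPM (median 27.3) in the treated. Every treated library was above every untreated one, and the average log2 change was 8.47 ± 0.29 (adjusted p = 1.86e-17), a fitted value that rests on 16 untreated reads in all. Summed over each genotype, Pmepa1 reads were 447 times as many under TGF-β1 in Smad2fl (95% interval of the counting error alone, 174 to 1641), 79.4 times in the libraries labelled MyS2KO (40.04 to 185), 777 times in Smad3fl (265 to 3769) and 1687 times in MyS3KO (302 to 66671).

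The inhibitory SMADs followed. Smad7 (ENSMUSG00000025880, chr18:75367529-75395935), which recruits ubiquitin ligases to the activated receptor, was at 0.835, 1.22 and 1.14 CPM untreated against 41.99, 44.1 and 40.9 treated in Smad2fl and 1.15, 0.585 and 1.56 CPM untreated against 25.7, 23.7 and 23.03 treated in the libraries labelled MyS2KO. In the Smad3 line it was at 0.798, 0.720 and 0.516 CPM untreated against 50.9, 48.4 and 57.5 treated in Smad3fl and 0.953, 0.739 and 0.748 CPM untreated against 45.4, 44.4 and 37.9 treated in MyS3KO. The treated libraries labelled MyS2KO were the lowest of the treated ones and still far above every untreated library (5.43 ± 0.17, adjusted p = 7.32e-18). Smad6 (ENSMUSG00000036867, chr9:63953076-64022059), an inhibitor best known from the related BMP pathway, lay at 0.246 to 0.954 CPM (median 0.495) untreated and 10.6 to 26.6 CPM (median 15.9) treated (4.89 ± 0.17, adjusted p = 2.11e-17). Spsb1 (ENSMUSG00000039911, chr4:149896283-149955043), a ubiquitin ligase adaptor for the type II TGF-β receptor, rose by 3.83 ± 0.23, being at 0.468 to 4.63 CPM (median 1.58) untreated and 11.3 to 45.3 CPM (median 24.9) treated.

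Secreted proteins made up a second group of the 12. Tgfbi (ENSMUSG00000035493, chr13:56609523-56639562), an extracellular matrix protein that TGF-β is known to induce, was at 15.4 to 62.9 CPM (median 31.5) untreated and 379 to 815 CPM (median 551) treated (4.02 ± 0.16, adjusted p = 2.76e-16). The lowest treated library was thus several times above the highest untreated one. Angptl2 (ENSMUSG00000004105, chr2:33216069-33247717), a secreted angiopoietin-like protein, rose by 4.08 ± 0.14 and had nearly the same change in each genotype: 4.28 in Smad2fl, 4.05 in the libraries labelled MyS2KO, 4.01 in Smad3fl and 4.01 in MyS3KO.

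The receptor of fractalkine, Cx3cr1 (ENSMUSG00000052336, chr9:119901616-120069879), a marker of microglia and patrolling monocytes, was near zero without TGF-β1: 0 to 1.32 CPM (median 0.331) against 1.68 to 21.4 CPM (median 6.22) with it (4.30 ± 0.29, adjusted p = 5.28e-12). Its treated level was highest in Smad3fl (21.4, 15.03 and 13.8 CPM) and lowest in the libraries labelled MyS2KO (4.21, 1.68 and 3.81). The raised genes further held the deubiquitinase gene Usp2 (ENSMUSG00000032010, chr9:44067021-44095627; 4.36 ± 0.22, adjusted p = 2.39e-14), the nucleotide exchange factor gene Spata13 (ENSMUSG00000021990, chr14:60634001-60764556; 4.69 ± 0.16), the phosphatase-like Pald1 (ENSMUSG00000020092, chr10:61319656-61383530; 4.38 ± 0.27) and Ermap (ENSMUSG00000028644, chr4:119175457-119190011; 4.85 ± 0.39), named for a membrane protein of red cells. Ermap belonged to a fixed list of erythroid and megakaryocyte markers, of which 4 of 12 were tested and Ermap alone was called. The summed level of that list was 89.3 to 265 CPM untreated and 77.9 to 256 treated, and its part in the result was not tested.

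**Figure D2:**
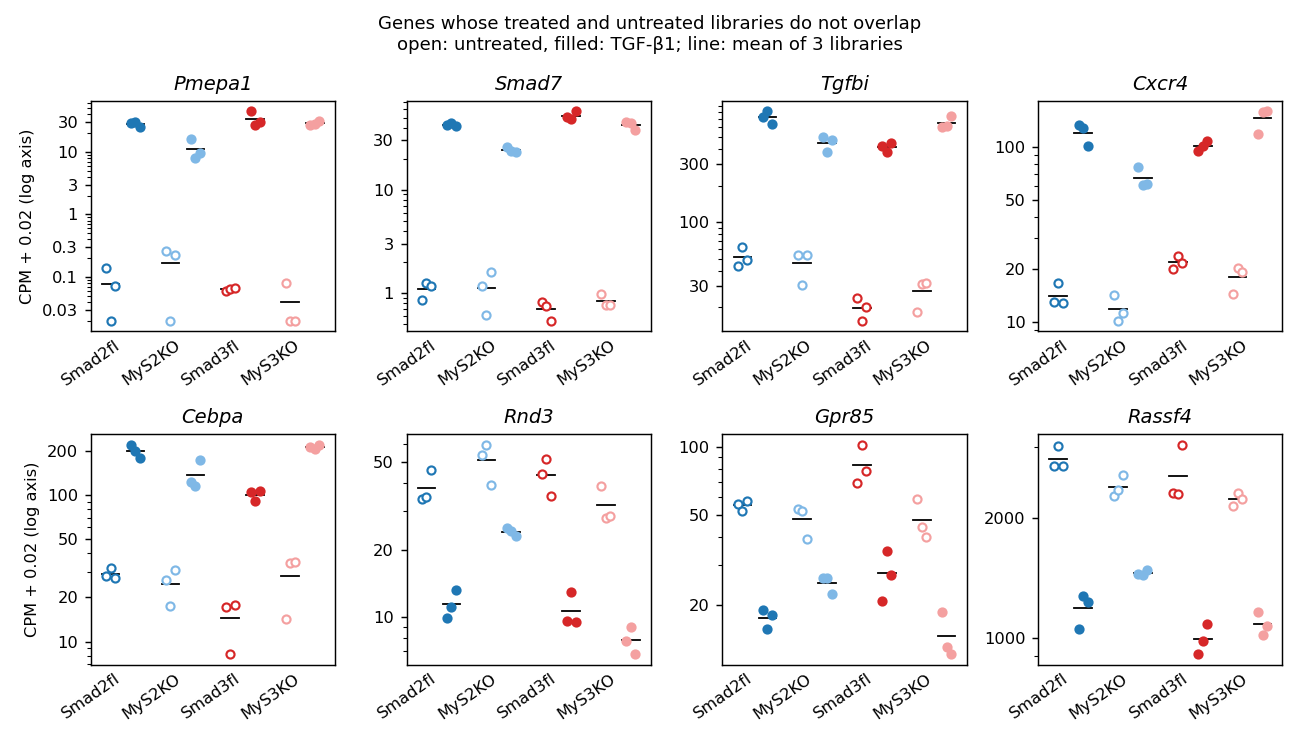
Level in each library (CPM + 0.02, log axis) of 8 genes whose treated (filled) and untreated (open) libraries do not overlap within any genotype, by genotype, with the mean of 3 libraries as a line. Pmepa1, Smad7, Tgfbi, Cxcr4 and Cebpa are higher in the filled points, Rnd3, Gpr85 and Rassf4 lower, in all 4 genotypes.

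The promoters of these genes are shown because SMAD proteins bind short DNA elements. RefSeq windows of 300 bases (250 before to 50 after the start, build GRCm38.p6) were matched for 9 of the 12 raised genes, giving 10 windows. They were searched on both strands for GTCTAGAC, the palindromic SMAD element, for CAGACA, and for GGCGCC, a GC-rich element; the motifs do not overlap in the windows below. GTCTAGAC was in 1 window, CAGACA in 3 and GGCGCC in 2, while 4 windows held none. Of the windows below, Smad6 holds the palindrome, Usp2 holds CAGACA on the reverse strand, Tgfbi holds GGCGCC, and Cx3cr1 is shown as one without any of them; capitals mark the motif, and each is read 5′ to 3′ along the gene.
Smad6, chr9:64022010-64022309, minus strand: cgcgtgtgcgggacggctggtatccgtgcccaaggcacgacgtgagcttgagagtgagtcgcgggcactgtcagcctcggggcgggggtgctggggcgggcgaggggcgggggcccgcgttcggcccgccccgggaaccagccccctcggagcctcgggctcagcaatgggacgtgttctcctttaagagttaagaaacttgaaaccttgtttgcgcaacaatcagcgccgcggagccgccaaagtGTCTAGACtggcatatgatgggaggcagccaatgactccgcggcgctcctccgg
Usp2, chr9:44084670-44084969, plus strand: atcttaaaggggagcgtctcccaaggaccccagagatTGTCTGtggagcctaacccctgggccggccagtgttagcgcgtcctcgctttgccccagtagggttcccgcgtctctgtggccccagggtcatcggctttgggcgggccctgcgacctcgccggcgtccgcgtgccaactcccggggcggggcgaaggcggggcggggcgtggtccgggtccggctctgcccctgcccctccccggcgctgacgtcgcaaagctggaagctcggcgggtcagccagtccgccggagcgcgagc
Tgfbi, chr13:56609336-56609635, plus strand: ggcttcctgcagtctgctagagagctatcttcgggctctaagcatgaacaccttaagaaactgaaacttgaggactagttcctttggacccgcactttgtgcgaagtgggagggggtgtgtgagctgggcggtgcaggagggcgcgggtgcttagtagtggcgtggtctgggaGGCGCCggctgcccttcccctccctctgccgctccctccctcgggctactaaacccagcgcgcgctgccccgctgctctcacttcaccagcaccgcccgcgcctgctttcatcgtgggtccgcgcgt
Cx3cr1, chr9:120068247-120068546, minus strand: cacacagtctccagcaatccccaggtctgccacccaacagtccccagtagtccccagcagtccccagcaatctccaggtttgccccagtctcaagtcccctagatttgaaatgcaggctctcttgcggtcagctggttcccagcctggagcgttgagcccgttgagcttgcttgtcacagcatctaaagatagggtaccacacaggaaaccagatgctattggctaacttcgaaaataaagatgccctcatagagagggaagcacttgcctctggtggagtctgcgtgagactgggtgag

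Over all tested genes 12595 windows were matched, and 0.238% of them held GTCTAGAC, 16.2% CAGACA and 19.5% GGCGCC. Among genes called with at least a 2-fold rise the shares were 0.569%, 21.3% and 19.7% of 527 windows, and among those with at least a 2-fold fall 0%, 13.4% and 18% of 172 windows. These shares are descriptions of the letters in the windows and were not tested.

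The largest decreases were smaller. Sik1 (ENSMUSG00000024042, chr17:31844248-31855792), a salt-inducible kinase that restrains CREB coactivators, was at 17.02, 18.1 and 13.8 CPM untreated against 3.93, 3.61 and 4.23 treated in Smad2fl and 16.6, 14.6 and 20.01 CPM untreated against 7.39, 6.58 and 8.16 treated in the libraries labelled MyS2KO. Its level in the Smad3 line was lower in both arms, with 2.47, 2.12 and 5.82 CPM untreated against 0.453, 0.703 and 0.615 treated in Smad3fl and 1.79, 3.500 and 2.90 CPM untreated against 0.613, 0.297 and 0.341 treated in MyS3KO. The arms overlap across genotypes and separate within each, and the average change was -1.99 ± 0.19 (adjusted p = 5.6e-09). Slc40a1 (ENSMUSG00000025993, chr1:45908068-45926523), the iron exporter ferroportin, fell by 1.78 ± 0.18 (adjusted p = 1.49e-08), being at 13.6 to 127 CPM (median 36.6) untreated and 4.05 to 19.6 CPM (median 11.7) treated. Cebpd (ENSMUSG00000071637, chr16:15887286-15891031), an inflammation-linked C/EBP transcription factor, was at 95.3 to 243 CPM (median 173) untreated and 30.5 to 120.4 CPM (median 46.9) treated (-1.67 ± 0.17, adjusted p = 1.39e-08).

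Rnd3 (ENSMUSG00000017144, chr2:51130438-51149111), an atypical GTPase that opposes actin contraction, was at 27.8 to 59.7 CPM (median 39.1) untreated and 6.77 to 25.1 CPM (median 10.5) treated, with no overlap of the 12 and 12 libraries (-1.71 ± 0.12, adjusted p = 2.09e-11). Cdkn2b (ENSMUSG00000073802, chr4:89306299-89311039), which encodes the cell cycle inhibitor p15 and is raised by TGF-β in epithelial cells, was lower here in each genotype: 7.32, 6.62 and 7.16 CPM untreated against 1.92, 1.58 and 1.88 treated in Smad2fl, for example, and 29.5, 16.6 and 15.8 CPM untreated against 8.06, 6.68 and 5.48 treated in Smad3fl (-1.58 ± 0.13, adjusted p = 1.77e-10). Others among the 12 were the orphan receptor genes Gprc5c (-1.89 ± 0.25) and Gpr85 (-1.48 ± 0.11), the kinase gene Pim1 (-1.55 ± 0.17), the chromatin reader gene L3mbtl3 (-1.53 ± 0.13), the protocadherin gene Pcdhac2 (-1.56 ± 0.19) and Tmtc2 (-1.48 ± 0.17). Only Rnd3, Gpr85 and Tmtc2 of the 12 had all treated libraries below all untreated ones.

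By absolute amount the response was carried by other genes. The largest gains in mean CPM, a measure that favours long and abundant transcripts, were those of Lrp1, an endocytic receptor (0.52 ± 0.05, medians 2102 and 3131 CPM), Plec, a cytoskeletal linker (1.36 ± 0.09, 445 and 1224), Myh9, a non-muscle myosin (0.92 ± 0.06, 768 and 1562), Cpd, a carboxypeptidase (1.64 ± 0.10, 307 and 963), Abca1, a cholesterol exporter (1.55 ± 0.10, 292 and 943), and Tns3, a focal adhesion protein (1.05 ± 0.08, 459.8 and 1007). Each was called in all 4 genotypes. The largest losses in mean CPM, in this order, were those of the complement gene C3 (-0.37 ± 0.12, adjusted p = 0.0162), the F4/80 gene Adgre1 (-0.22 ± 0.08, adjusted p = 0.0383), the interferon-induced Mx1 (-0.59 ± 0.20, adjusted p = 0.0253), Rassf4, the chaperone gene Hspa8 (-0.51 ± 0.09, adjusted p = 9.9e-05) and the interferon-induced Cmpk2 (-0.57 ± 0.17, adjusted p = 0.0106). Rassf4, a Ras-association protein, was at 2140.3 to 3049 CPM (median 2322) untreated and 910.2 to 1482 CPM (median 1122) treated (-1.09 ± 0.08, adjusted p = 2.09e-11) and was called in all 4 genotypes. C3, Adgre1, Mx1 and Cmpk2 were called in no single genotype. C3, Adgre1 and Mx1 lost the call without Smad2fl (adjusted p of 0.0684, 0.188 and 0.0592), as did all 4 without Smad3fl (0.11, 0.0956, 0.0985 and 0.0593), and Mx1 also without MyS2KO (0.0527). With no filter on low counts Adgre1 lost it too (0.0556). Single libraries ended 2 of these calls: Adgre1 without untreated Smad2fl number 2 (0.0689) or 3 (0.0586), untreated Smad3fl number 3 (0.052) or treated Smad3fl number 1 (0.0718), and Mx1 without untreated MyS3KO number 1 (0.0633).

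Gene lists by function show where the called genes lie. A list is described by its counts beside the shares over all genes, 16.2% higher and 14.1% lower, and no list was tested as a whole. Members and lists were chosen with earlier results of these data known, so the counts are descriptions only. In the list of TGF-β feedback inhibitors and direct SMAD targets, 17 of 25 tested members were called higher and 4 lower (median change 1.07). In all 4 genotypes 15 members were called, beside 343 raised and 60 lowered genes of all 14261 tested. The transcriptional corepressor genes Ski (1.82 ± 0.07) and Skil (1.29 ± 0.13) rose, as did the repressor genes Tgif1 (1.07 ± 0.09) and Klf10 (1.46 ± 0.13), the ubiquitin ligase genes Smurf1 (0.65 ± 0.07) and Smurf2 (0.80 ± 0.06) and Tmeff1 (5.55 ± 0.35, median 0.0246 CPM untreated and 2.998 treated), which encodes a membrane protein that binds TGF-β family receptors or ligands. The 4 members called lower were Cdkn2b, Nedd9 (-0.51 ± 0.16), Zeb1 (-0.39 ± 0.12) and the p21 gene Cdkn1a (-0.29 ± 0.11), all of which TGF-β is known to raise in epithelial cells.

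Of the receptors and SMADs, 6 of 15 tested members were called higher and 1 lower (median change 0.27). Tgfbr1, the type I receptor, was the one with more than a 2-fold change: it was at 8.42 to 42.8 CPM (median 21.1) untreated and 50.3 to 180.5 CPM (median 96.5) treated (2.35 ± 0.15, adjusted p = 1.27e-12), while its partner Tgfbr2 had medians of 233 and 242 CPM (0.00 ± 0.07, adjusted p = 0.993). Smad5 of the BMP branch rose by 0.74 ± 0.08 and the co-receptor gene Eng fell by 0.34 ± 0.10. Among ligands and activators, 2 of 11 tested members were called higher and 4 lower (median change -0.20). The proprotein convertase gene Furin rose (1.57 ± 0.09), which encodes an enzyme that cuts the TGF-β precursor, and Bmp2 (-1.66 ± 0.23) and the latent TGF-β anchor Nrros (-0.83 ± 0.11) fell. Tgfb1 itself had medians of 134 and 127 CPM (-0.14 ± 0.11, adjusted p = 0.352). In the short list of ID genes and BMP SMAD targets, 4 of 5 tested members were called higher and 0 lower (median change 2.19). The inhibitors of basic helix-loop-helix factors Id1 (2.19 ± 0.31), Id2 (1.55 ± 0.13) and Id3 (2.38 ± 0.27) and the repressor gene Hey1 (3.99 ± 0.42) rose. The fitted value of Hey1 rests on 1 to 8 untreated reads per genotype, and its treated means were 0.49 to 1.02 CPM.

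Transcription factor families split. Of AP-1 and EGR factors, 4 of 16 tested members were called higher and 4 lower (median change -0.10). Fos rose, being at 77.8 to 242 CPM (median 112) untreated and 254 to 665 CPM (median 387) treated (1.79 ± 0.10, adjusted p = 4.59e-13) and Jun fell, being at 245 to 557 CPM (median 423) untreated and 158 to 302 CPM (median 207) treated (-0.89 ± 0.11, adjusted p = 6.65e-07), although both encode AP-1 subunits. Of C/EBP factors, 2 of 5 tested members were called higher and 1 lower (median change 0.28). Cebpa rose (2.75 ± 0.14, adjusted p = 3.82e-14; medians 26.7 and 176 CPM) and Cebpb rose (1.10 ± 0.15), against the fall of Cebpd. Of Krüppel-like factors, 3 of 10 tested members were called higher and 4 lower (median change -0.10), with Klf10 and Klf13 (0.66 ± 0.06) up and Klf6 (-0.91 ± 0.11) and Klf2 (-0.72 ± 0.18) down. In the list of SIK kinases, CREB partners and NR4A receptors, 4 of 13 tested members were called higher and 3 lower (median change 0.12). Nr4a1 rose (1.79 ± 0.19) where Sik1 fell. Of the clock genes, 5 of 17 tested members were called higher and 2 lower (median change 0.15). Besides Usp2, the repressor gene Bhlhe40 (2.28 ± 0.18) rose and Dbp (-0.69 ± 0.13) fell. Of Notch receptors and targets, 6 of 12 tested members were called higher and 1 lower (median change 0.32). The ligand gene Jag1 (2.34 ± 0.20), the modifier gene Lfng (1.81 ± 0.16) and Hey1 rose and the receptor gene Notch2 fell (-0.71 ± 0.07).

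Inflammatory lists leaned to lower levels on average. Over all 14261 tested genes, 343 raised and 60 lowered ones were called in all 4 genotypes. List members so called numbered 1 each in the NF-κB, chemokine, Toll-like receptor and Fc receptor lists. They numbered 0 in the cytokine, interferon and antigen presentation lists. The same sign in all 4 was held by 12 of 16 NF-κB, 10 of 15 cytokine and 12 of 19 chemokine members. It was 12 of 22 for Toll-like receptors, 24 of 30 for interferon, 11 of 19 for antigen presentation and 12 of 16 for Fc receptors (all genes, 43.4%). Of the NF-κB subunits and inhibitors, 1 of 16 tested members were called higher and 11 lower (median change -0.43). Nfkbiz (-0.86 ± 0.06, adjusted p = 6.19e-12), an atypical IκB protein, and Tnip3 (-0.93 ± 0.13), an inhibitor of NF-κB signalling, fell most, Nfkbid (0.52 ± 0.09) was the member that rose, and the subunit gene Rela had -0.07 ± 0.08 (adjusted p = 0.563). Of inflammatory cytokines and enzymes, 1 of 15 tested members were called higher and 8 lower (median change -0.49). Il10 was at 17.96 to 46.2 CPM (median 29.01) untreated and 3.53 to 25.04 CPM (median 9.95) treated (-1.45 ± 0.20, adjusted p = 2.03e-06), so an anti-inflammatory cytokine was among those that fell, together with Tnfsf15 (-1.44 ± 0.21), Il1b (-1.25 ± 0.25) and Il27 (-1.08 ± 0.19). Il6 fell as well (-1.33 ± 0.42, adjusted p = 0.0177), but not past the threshold without Smad2fl (0.0622), without MyS3KO (0.0889) or with limma-voom (0.213). Tnf had 0.06 ± 0.16 (adjusted p = 0.818), and the growth factor gene Csf1 rose (0.43 ± 0.16). Of chemokines, 2 of 19 tested members were called higher and 5 lower (median change -0.33). The neutrophil attractant genes Cxcl1 (-1.21 ± 0.23) and Cxcl2 (-0.91 ± 0.18) and the monocyte attractant genes Ccl3 (-1.11 ± 0.20) and Ccl4 (-0.96 ± 0.22) fell, and Cxcl14 (1.63 ± 0.19) and Cxcl16 (1.05 ± 0.08) rose.

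Among Toll-like receptors and inflammasome genes, 3 of 22 tested members were called higher and 8 lower (median change -0.27). Tlr2, the receptor of bacterial lipoproteins, rose, being at 157 to 258 CPM (median 199) untreated and 399.7 to 707 CPM (median 517) treated (1.29 ± 0.09, adjusted p = 1.2e-11), while its partners Tlr1 (-0.43 ± 0.07) and Tlr6 (-0.47 ± 0.07) fell along with Tlr4 (-0.47 ± 0.12), Tlr9 (-0.68 ± 0.14) and Cd14 (-0.50 ± 0.09). Of interferon-induced genes, 1 of 30 tested members were called higher and 16 lower (median change -0.31), and none of them changed 2-fold. The transcription factor genes Stat2 (-0.49 ± 0.12), Irf1 (-0.57 ± 0.18) and Irf7 (-0.41 ± 0.13) fell. Of genes for antigen presentation, 0 of 19 tested members were called higher and 5 lower (median change -0.21), among them Nlrc5, the regulator gene of MHC class I (-0.36 ± 0.09). Of Fc receptors and their ITAM adaptors, 1 of 16 tested members were called higher and 9 lower (median change -0.25). The phosphatase gene Inpp5d (SHIP1), an inhibitor of Fc receptor signalling, was the member that rose (1.01 ± 0.06, adjusted p = 1.17e-13).

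Growth factors and cell surface receptors gave large single increases. Of secreted growth factors, 6 of 14 tested members were called higher and 1 lower (median change 0.78). The platelet-derived growth factor genes Pdgfa (0.986 to 6.53 CPM (median 2.31) untreated and 17.1 to 47.6 CPM (median 30.7) treated; 3.54 ± 0.18, adjusted p = 4.34e-14) and Pdgfb (2.90 ± 0.18), Osm (2.32 ± 0.17) and Vegfa (1.16 ± 0.11) rose, and Igf1 fell (-0.29 ± 0.08). The migration receptor genes Cxcr4 (10.1 to 23.7 CPM (median 15.4) untreated and 60.5 to 160.5 CPM (median 105) treated; 2.71 ± 0.11, adjusted p = 5.8e-16) and S1pr1 (2.28 ± 0.14) rose within a list in which 3 of 15 tested members were called higher and 4 lower (median change -0.03). The formyl peptide receptor genes Fpr1 (-0.90 ± 0.10) and Fpr2 (-0.56 ± 0.07) fell. Of genes that depend on TGF-β in microglia, 4 of 8 tested members were called higher and 1 lower (median change 0.71), with Cx3cr1, Olfml3 (3.10 ± 0.22) and Gpr84 (1.98 ± 0.11) among those up and P2ry13 (-0.61 ± 0.15) down, whereas P2ry12 had 0.25 ± 0.16 (adjusted p = 0.243). Integrin genes split into rises of Itgav (1.59 ± 0.10), Itgb5 (1.77 ± 0.12), Itga5 (1.10 ± 0.12) and Itga6 (1.08 ± 0.08) and falls of Itga4 (-0.54 ± 0.12), Itga9 (-0.27 ± 0.06), Itgam (-0.17 ± 0.07) and Itgb8 (-2.21 ± 0.43), 8 of 15 tested members in all; αv pairs with β5 and with β8, both of which can bind latent TGF-β or its matrix partners. In the list of matrix proteases and their inhibitors, 8 of 19 tested members were called higher and 2 lower (median change -0.04). Adam19 (1.40 ± 0.22), Plaur (1.36 ± 0.17) and Plau (1.26 ± 0.18) rose and Adamts4 fell (-1.11 ± 0.17).

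Of sterol and fatty acid synthesis genes, 0 of 23 tested members were called higher and 11 lower (median change -0.30). The regulator gene Srebf2 (-0.27 ± 0.09) was among those that fell. In the list for cholesterol efflux, 6 of 17 tested members were called higher and 1 lower (median change 0.09). The exporter genes Abca1 (1.55 ± 0.10) and Abcg1 (1.08 ± 0.08) and the nuclear receptor genes Ppard (1.49 ± 0.09) and Rxra (1.33 ± 0.09) rose while Pparg fell (-1.39 ± 0.10, adjusted p = 2.54e-11). Of iron and heme genes, 4 of 16 tested members were called higher and 6 lower (median change -0.24), with ferroportin the largest fall. Of genes of the unfolded protein and integrated stress responses, 0 of 20 tested members were called higher and 8 lower (median change -0.22). Chac1 (-0.80 ± 0.16) and Herpud1 (-0.68 ± 0.08) were the largest.

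Cell cycle lists pointed in different directions. Of DNA replication and G1/S genes, 8 of 23 tested members were called higher and 0 lower (median change 0.23). E2f2 rose, being at 0.180 to 3.32 CPM (median 1.29) untreated and 2.26 to 16.1 CPM (median 10.4) treated (3.03 ± 0.20, adjusted p = 4.39e-12), and the licensing factor genes Cdt1 (1.22 ± 0.10), Mcm6 (1.03 ± 0.10) and Mcm3 (0.95 ± 0.13) rose too. The summed level of that list was 352 to 436 CPM in untreated and 504 to 616 CPM in treated libraries, without overlap. Of mitosis genes, 3 of 21 tested members were called higher and 1 lower (median change -0.10), and their sum lay at 52.5 to 126 CPM untreated and 57.1 to 104 CPM treated. Of G1 cyclins, inhibitors and Myc, 1 of 16 tested members were called higher and 8 lower (median change -0.29). Myc fell (-0.67 ± 0.14, adjusted p = 0.000534), as did the inhibitor genes Cdkn2b, Cdkn2c (-0.38 ± 0.09), Cdkn2d (-0.59 ± 0.12) and Cdkn1b (-0.25 ± 0.07), and Ccnd1 rose (0.38 ± 0.14). Of activators and feedback genes of the Ras-ERK pathway, 2 of 14 tested members were called higher and 8 lower (median change -0.45). Rasgrp1 (-2.0002 ± 0.32) fell most and the phosphatase gene Dusp4 rose (1.32 ± 0.17).

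**Figure D3:**
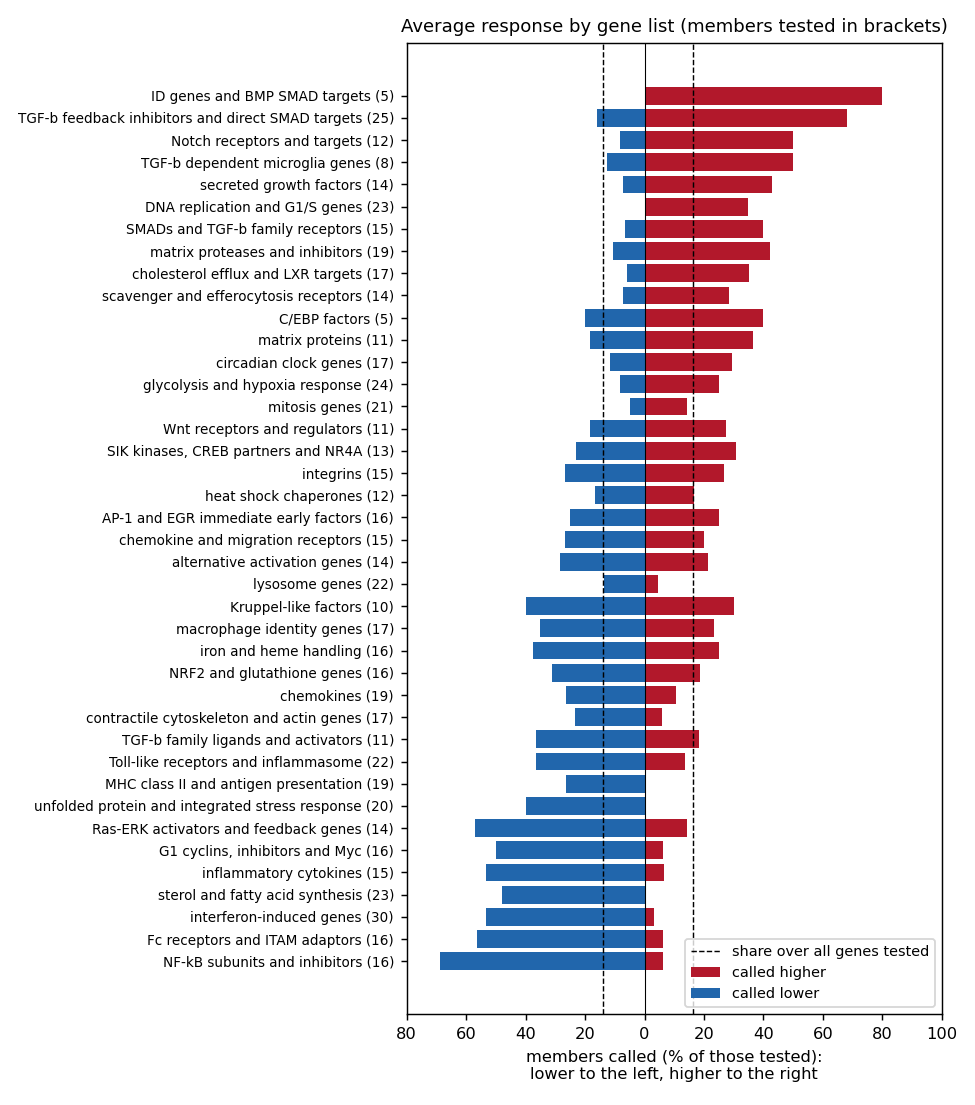
Share of the tested members of each gene list (number in brackets) called higher (bars to the right) or lower (bars to the left) on average, in percent, with dashed lines at the shares over all genes (16.2% and 14.1%). The ID list has 4 of 5 members higher and the TGF-β feedback list 17 of 25, while the NF-κB list has 11 of 16 lower and the interferon list 16 of 30. The lists were chosen with earlier results of these data known.

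Whether the response carries over to a genotype that did not choose the genes was asked by leaving each genotype out. Genes called in the 18 libraries of 3 genotypes were followed in the 6 libraries of the fourth, so no library serves both sides. In Smad2fl 99.1% of the raised and 97.3% of the lowered genes had the same sign, beside 77.2% of all genes tested in both. In the libraries labelled MyS2KO it was 97.6% and 92.2% (all genes, 74.7%), in Smad3fl 95.8% and 98.1% (78.2%), and in MyS3KO 88.3% and 88.6% (65.0%). Over the 4 rounds 1 gene was called in the opposite direction, in Smad2fl. Of the genes chosen with at least a 2-fold change, 96.4% (in the libraries labelled MyS2KO) to 98.8% (in Smad2fl) kept their sign.

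The size of the change carried over less evenly. The median ratio of the held-out log2 change to that in the other 3 genotypes was 1.21 for raised and 0.952 for lowered genes in Smad2fl, 0.957 and 1.35 in Smad3fl, and 0.907 and 0.659 in MyS3KO. In the libraries labelled MyS2KO it was 0.751 and 0.442, the lowest of the 4 in both directions. Calls in the held-out genotype came from a fit to its 6 libraries alone, so they differ from the single-genotype calls given above. In the libraries labelled MyS2KO 332 of 1748 raised genes (19%) and 63 of 1924 lowered genes (3.27%) were called. It was 579 of 1757 (33.0%) and 340 of 1328 (25.6%) in Smad3fl and 539 of 1918 (28.1%) and 212 of 1975 (10.7%) in MyS3KO. Smad2fl had the highest shares, 982 of 1404 (69.9%) and 563 of 1244 (45.3%). Over all genes tested, 2.74% were called higher and 0.518% lower in the libraries labelled MyS2KO. These shares were 4.85% and 3.02% in Smad3fl, 4.78% and 2.34% in MyS3KO, and 10.2% and 6.50% in Smad2fl.

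**Figure D4:**
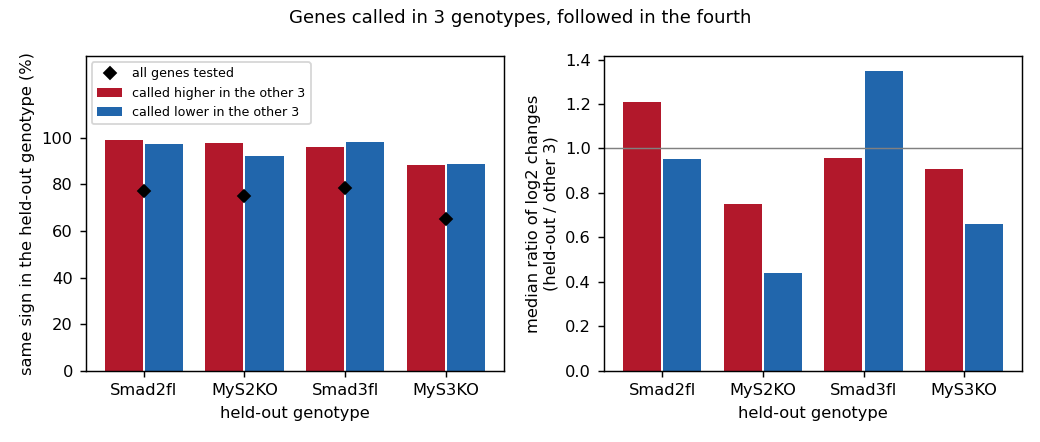
Genes called in 3 genotypes and followed in the fourth. Left, percent with the same sign in the held-out genotype (bars from 0), with diamonds for all genes tested; right, median ratio of the held-out log2 change to that of the other 3, with a line at 1, which the libraries labelled MyS2KO miss by the most (0.751 and 0.442).

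The libraries labelled MyS2KO also held the smallest of the 4 changes most often within the average itself. Of the 623 genes with at least a 2-fold average rise, 318 (51.0%) had their smallest change in the libraries labelled MyS2KO, 148 in Smad3fl, 109 in MyS3KO and 48 in Smad2fl. For the 204 genes with at least a 2-fold fall the numbers were 140 (68.6%), 27, 23 and 14. Median changes of the raised set were 1.74 in Smad2fl, 1.23 in the libraries labelled MyS2KO, 1.54 in Smad3fl and 1.61 in MyS3KO, and of the lowered set -1.39, -0.83, -1.45 and -1.32. These are descriptions over genes that share libraries, and no test was made of them; gene by gene, the difference of the libraries labelled MyS2KO from the mean of the other 3 passed for 2 genes (0.014%), and 1 gene (0.00701%) passed in each of the other 3 genotypes.

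A test of the difference between the 4 genotypes was called for 4 of 14261 genes (0.028%; edgeR quasi-likelihood F test on the 3 interaction terms). Of the 14261, 713 had an unadjusted p under 0.05, about as many as that threshold passes when no gene differs. DESeq2's likelihood ratio test called 69, and 273 were called with no filter on low counts. With the library number within each genotype as a replicate block, 120 were called and 2296 of 14261 had an unadjusted p under 0.05, a larger share. No label says what that number stands for. Chst3, a sulfotransferase gene of chondroitin sulfate synthesis (ENSMUSG00000057337, chr10:60181532-60219260), rose in all 4 genotypes but to different extents. It was at 1.91, 1.96 and 1.04 CPM untreated against 18.4, 19.2 and 17.7 treated in Smad2fl and 4.12, 3.29 and 4.88 CPM untreated against 12.1, 11.04 and 13.8 treated in the libraries labelled MyS2KO, where the untreated level was highest and the change smallest. It was at 1.56, 1.35 and 1.31 CPM untreated against 9.33, 11.5 and 10.5 treated in Smad3fl and 1.07, 1.08 and 0.982 CPM untreated against 15.9, 16.3 and 16.5 treated in MyS3KO. The 4 log2 changes were 3.48 ± 0.20, 1.59 ± 0.19, 2.88 ± 0.20 and 3.95 ± 0.22 (adjusted p of the difference, 0.000792), and the change in the libraries labelled MyS2KO differed from the mean of the other 3 by -1.85 ± 0.22 (adjusted p = 0.000355). The call of a difference was lost without those libraries (0.868) or without MyS3KO (0.0803).

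Sntb2, which encodes a syntrophin of the dystrophin complex (ENSMUSG00000041308, chr8:106935750-107019714), did not pass the average test (-0.39 ± 0.24, adjusted p = 0.234), and the lines moved in opposite directions. In Smad2fl it was at 32.1, 33.1 and 46.1 CPM untreated against 59.7, 59.4 and 64.3 treated, a rise of 0.72 ± 0.19, and in the libraries labelled MyS2KO at 49.6, 46.5 and 41.2 CPM untreated against 69.1, 58.7 and 54.9 treated (0.41 ± 0.19, adjusted p = 0.401). In Smad3fl it was at 36.4, 44.8 and 41.2 CPM untreated against 30.8, 20.7 and 16.8 treated (-0.84 ± 0.19) and in MyS3KO at 67.1, 50.6 and 48.9 CPM untreated against 17.2, 12.5 and 12.1 treated, a change of -1.998 ± 0.20. Treated libraries were thus above the untreated ones in the Smad2 line and below them in the Smad3 line, without overlap in any genotype, and the difference between genotypes had an adjusted p of 6.11e-05. That call was lost without MyS3KO (0.0907), and the average fall passed with 8 group means (0.0017), with no filter on low counts (0.000319) or without Smad2fl (0.0313). Of the 14261 genes, Sntb2 alone was called higher in one genotype and lower in another.

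Gab1, an adaptor of growth factor receptor signalling (ENSMUSG00000031714, chr8:80764438-80880519), stood at 1.75, 2.01 and 1.71 CPM untreated against 1.36, 1.14 and 1.62 treated in Smad2fl and 2.79, 2.39 and 3.62 CPM untreated against 2.501, 2.13 and 1.81 treated in the libraries labelled MyS2KO. In the Smad3 line it was at 1.44, 1.44 and 1.13 CPM untreated against 3.31, 4.40 and 3.35 treated in Smad3fl (1.46 ± 0.24) and 1.13, 1.53 and 1.496 CPM untreated against 3.06, 3.52 and 3.58 treated in MyS3KO (1.28 ± 0.24), so that the treated libraries were higher there, and the difference between genotypes had an adjusted p of 0.0117. That call was lost without any 1 of the genotypes (0.0975 to 0.241). Its average change did not pass (0.48 ± 0.22, adjusted p = 0.101), but did with 8 group means (0.00488), without Smad2fl (0.0321), without MyS2KO (0.0197) or without untreated MyS2KO number 3 (0.0479).

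Ermap rose in each genotype from different baselines. It was at 1.32, 0.900 and 0.751 CPM untreated against 7.70, 10.5 and 8.67 treated in Smad3fl, 8.92 times as many reads (95% counting interval, 6.94 to 11.6), whereas the other untreated groups held 0 to 3 reads. It had no read in the untreated libraries labelled MyS2KO and 2.56, 2.97 and 1.71 CPM in the treated, at least 46.96-fold higher against a floor of 3 reads over the group. In MyS3KO the ratio was 144 (49.04 to 702) and in Smad2fl 274 (48.8 to 10869). The adjusted p of the Ermap difference, 0.0117, rose above 0.05 without Smad3fl untreated number 1 (0.0696) or Smad3fl treated number 1 (0.0548), and without any 1 of the genotypes (0.0551 to 0.859).

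Fkbp5, a chaperone gene of steroid receptors (ENSMUSG00000024222, chr17:28399094-28517527), rose in all 4 genotypes, least in the libraries labelled MyS2KO: 8.06, 5.99 and 8.09 CPM untreated against 32.5, 24.8 and 30.4 treated (1.99 ± 0.19) against, for example, 5.25, 7.996 and 6.27 CPM untreated against 59.7, 59.2 and 50.8 treated in Smad2fl (3.12 ± 0.19). Its difference from the mean of the other 3 passed (-1.26 ± 0.21, adjusted p = 0.0345), while the test over all 4 did not (0.0753). Others among the genes with the smallest p of that test, none of which passed, were Id3 (0.89 in Smad3fl against 3.88 in MyS3KO; adjusted p = 0.0753), Plau (0.35 in the libraries labelled MyS2KO against 2.20 in Smad3fl; 0.0753) and Bhlhe40 (1.501 in Smad3fl against 3.17 in Smad2fl; 0.0788). At the other end, Abcc4, a cyclic nucleotide and drug exporter, had 1.45, 1.23, 1.37 and 1.39 in the 4 genotypes in the order above, and Ccsap, a centriole protein gene, 2.99, 2.73, 2.54 and 2.83. Spata5l1, listed as a processed transcript, had 0.95, 0.98, 0.99 and 1.08.

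**Figure D5:**
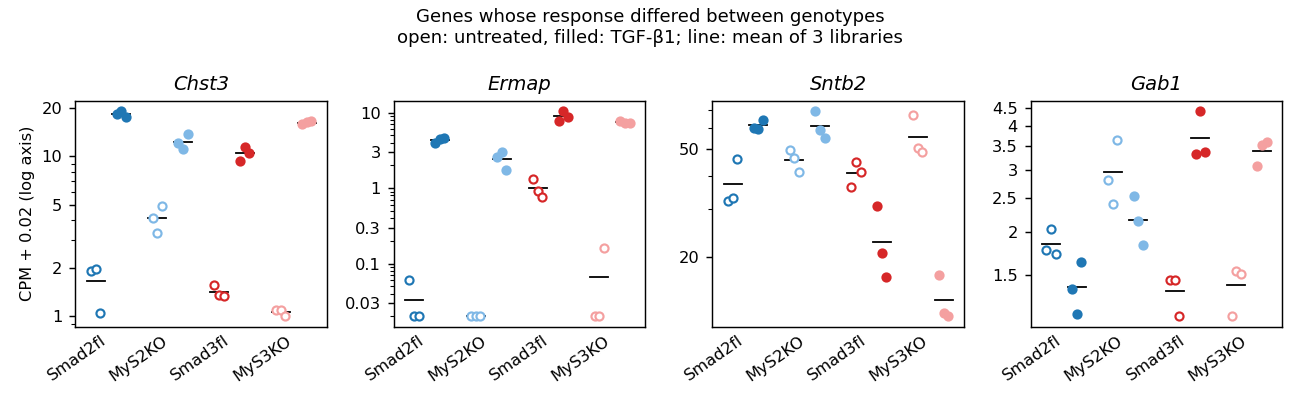
Level in each library (CPM + 0.02, log axis) of the 4 genes whose response differed between genotypes, untreated open and treated filled, with the mean of 3 libraries as a line. Sntb2 is higher under TGF-β1 in the Smad2 line and lower in the Smad3 line, Gab1 is higher in the Smad3 line, and Chst3 and Ermap are higher in every genotype from different untreated levels.

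Transcripts of proteins that the liver secretes were among the genes called higher on average, with their highest levels in the treated libraries of the 2 genotypes with LyzM-Cre. Alb, the albumin gene (ENSMUSG00000029368, chr5:90460897-90476602), was at 15.4, 18.8 and 18.4 CPM untreated against 49.1, 38.1 and 30.996 treated in the libraries labelled MyS2KO and 15.3, 26.3 and 18.4 CPM untreated against 69.3, 93.9 and 71.5 treated in MyS3KO. In Smad2fl it was at 14.9, 15.3 and 12.96 CPM untreated against 16.3, 17.2 and 15.9 treated and in Smad3fl at 10.8, 11.9 and 19.6 CPM untreated against 9.83, 7.56 and 19.01 treated. The average change of Alb was 0.79 ± 0.22 (adjusted p = 0.00715), and that of Hpx, the gene of the heme carrier hemopexin, 0.92 ± 0.26 (0.00755); the difference between genotypes had an adjusted p of 0.0753 for both. Apob, which encodes the protein of low density lipoprotein, did not pass the average test (0.70 ± 0.34, adjusted p = 0.129), but did with limma-voom (0.96, adjusted p = 0.0295) and without Smad3fl (1.22, adjusted p = 0.00606). Stard10, a lipid transfer protein gene, did not pass (0.05 ± 0.25, adjusted p = 0.897). Alb and Hpx lost the average call without MyS2KO (0.0928 and 0.11) or without MyS3KO (0.171 and 0.267). The sum of 10 such transcripts, chosen after these values were seen, was 47.8 to 73.9 CPM in treated libraries labelled MyS2KO against 24.1 to 28.4 untreated, 98.5 to 133 in treated MyS3KO against 22.8 to 41.5 untreated, and 12.5 to 28.9 in the 4 floxed groups. The part of such transcripts in other changes was not tested.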

How the data were processed

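RNA of 24 libraries was counted per gene. Unnormalised read counts of 54532 Ensembl genes were deposited; 26189 of them had no read. The submitters' processing notes name Cufflinks 2.1.1, HTSeq 0.6.1, TopHat2 2.0.9 and the builds GRCm38.p6 and mm10. Neither the part each tool played nor the strand option is given in the sources used here, so overlapping antisense genes and near-identical copies are uncertain. Deposited FPKM values were not used here.

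Counts were scaled by TMM, filtered by filterByExpr on the 8 groups (14261 genes kept) and fitted in edgeR 4.0.16 (R 4.3.3) with genotype plus treatment. The quasi-likelihood test gave p-values, adjusted by Benjamini and Hochberg over all tested genes. A mean for each of the 8 groups gave genotype changes, their difference and each genotype minus the mean of the other 3. The SE is the change divided by the root of F. CPM uses TMM-scaled totals. Library-level values were compared by 2-sided exact permutation within genotypes (160000 arrangements). On simulated counts with 13757 genes kept, 100 genes were changed 1.5-fold and 100 2-fold in all genotypes, and 200 4-fold in Smad3fl only. The average test recovered 53% of the 1.5-fold and 84% of the 2-fold changes, and the test between genotypes 64.5% of the 4-fold ones. Far fewer genes were changed there than were called in these data, so the shares need not hold here. DESeq2 1.42.0 and limma 3.58.1 (voom) served as alternatives.

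The genes named are the 12 raised and 12 lowered with the largest average change (at least 5 CPM in the higher arm, same direction and no overlap in all 4 genotypes), the 6 and 6 with the largest CPM difference, the 12 with the smallest p between genotypes (8 called on average, 4 not), the 4 steadiest over genotypes, those called in opposite directions, and up to 3 per list; further list members were named after their values were seen and were not refitted under the alternatives. Some genes that the rule names are not reported here. Of 47 lists, the one of mast cell and basophil markers had no tested member and 1 symbol was not in the table. Members and lists were chosen with earlier results of these data known.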

Additional observations from a re-analysis of the deposited data

Results flagged for a closer look

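Results were set apart here where a test of the difference between genotypes passed. The response differed between the 4 genotypes (edgeR quasi-likelihood test, adjusted p over all genes) for Sntb2 (6.11e-05), Chst3 (0.000792), Ermap (0.0117) and Gab1 (0.0117). Sntb2 departed from the mean of the other 3 genotypes in MyS3KO (-2.10 ± 0.23, adjusted p = 8.09e-05) and in Smad2fl (1.53 ± 0.22, adjusted p = 0.0106). Chst3 departed in the libraries labelled MyS2KO (adjusted p = 0.000355), as did Fkbp5 (adjusted p = 0.0345), both with a smaller rise there. Ermap departed in Smad3fl (adjusted p = 0.00324), the genotype whose untreated libraries already held 69 reads of it; its fitted difference depends on the near-zero counts of the other groups and is not given. For Sntb2, Chst3 and Fkbp5 the 3 treated libraries of each genotype lay on 1 side of the 3 untreated ones.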

How the results depend on the processing

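The average response held between 2784 and 5335 called genes over all alternatives. The lowest count came without Smad2fl (1500 higher, 1284 lower; fewer libraries and 14065 genes tested), and leaving out single libraries gave 3886 to 4620 called, 1977 to 2422 higher, 1767 to 2256 lower, 595 to 674 with at least a 2-fold rise and 185 to 242 with at least a 2-fold fall. Requiring at least 1 CPM in at least 12 libraries left 391 and 119 genes with such rises and falls, out of 10996 tested. DESeq2 called 2374 higher and 2374 lower, and upper-quartile factors 2084 and 2353, moving the median of all genes to -0.04. No label says what a library number stands for, and the pairing was not taken as shown, since 9 and not all of 12 same-numbered pairs of deviations correlated above 0.1 (0.028 to 0.389). As a hint from the data, 9 of 12 pairs correlated best with their own number, all 3 pairs of Smad3fl and all 3 of the libraries labelled MyS2KO were above 0.1, and Smad3fl number 3 and MyS3KO number 1 each kept their own background markers in both arms. With that number as a replicate block 5335 genes were called, and the difference between genotypes for 120 (2296 at an unadjusted p under 0.05).

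With DESeq2 the number of members called lower went from 3 to 6 for lysosome genes, from 0 to 2 for DNA replication genes, from 1 to 2 for the SMAD and receptor, growth factor and scavenger lists and from 2 to 1 for matrix proteases, and the number called higher from 2 to 1 for stromal and endothelial markers.

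The difference between genotypes is the result that depends most on the processing: 69 genes with DESeq2, 273 with no filter on low counts, 2 without Smad2fl, 1 without MyS2KO, 2 without Smad3fl and 0 without MyS3KO, where 3 genotypes leave 2 interaction terms. Without MyS3KO, 686 of 13957 genes had an unadjusted p under 0.05, again about as many as that threshold passes when no gene differs. Leaving out single libraries gave 3 to 8 genes, 8 without untreated Smad3fl number 3, and 8 also without both Smad3fl libraries numbered 3, an alternative added after the data were seen. The cause was not tested. With genes chosen at 2-fold or more, the share with the same sign in the held-out genotype was 98.8% in Smad2fl (98.3% for all called), 96.4% in the libraries labelled MyS2KO (94.7%), 97.6% in Smad3fl (96.8%) and 98.6% in MyS3KO (88.4%).

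Signs of the average change turned for genes that were not called: Sntb2 without MyS3KO (0.098), and Stard10 (0.05 in all libraries) without MyS2KO (-0.14), without MyS3KO (-0.35), without both MyS3KO libraries numbered 1 (-0.0577) and with single libraries left out (-0.0722 to 0.152). For the 165 single-gene results, 3862 of 3960 values with 1 library left out kept their direction and side of the threshold, 76 lost the call, 16 gained it and 6, all of Stard10, turned sign.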

Other observations

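Other gene groups moved as follows, beside 16.2% higher and 14.1% lower over all genes. Of alternative activation genes, 3 of 14 tested members were called higher and 4 lower (median change -0.07). Tgm2, a transglutaminase (1.63 ± 0.14), and Arg1, arginase 1 (1.41 ± 0.33), rose and the cytokine signalling inhibitor gene Socs1 fell (-1.02 ± 0.23). Of macrophage identity genes, 4 of 17 tested members were called higher and 6 lower (median change -0.17). The transcription factor gene Maf fell (-0.53 ± 0.08). Of scavenger and efferocytosis receptors, 4 of 14 tested members were called higher and 1 lower (median change -0.08). Olr1, a receptor of oxidised lipoprotein, was at 0 to 0.540 CPM (median 0.109) untreated and 0.636 to 5.89 CPM (median 2.29) treated (3.85 ± 0.36, adjusted p = 3.31e-09). Of matrix proteins, 4 of 11 tested members were called higher and 2 lower (median change 0.13), and tenascin C (Tnc) rose by 2.05 ± 0.41, from only 3 to 13 untreated reads per genotype. Of Wnt receptors and regulators, 3 of 11 tested members were called higher and 2 lower (median change 0.08). The ubiquitin ligase gene Znrf3, an inhibitor of Wnt receptors, rose (3.08 ± 0.31, adjusted p = 1.03e-08) and the receptor gene Fzd1 fell (-1.79 ± 0.27, adjusted p = 9.63e-06).

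Of glycolysis and hypoxia genes, 6 of 24 tested members were called higher and 2 lower (median change 0.04); hexokinase 2 (Hk2) rose by 0.94 ± 0.08. Of NRF2 and glutathione genes, 3 of 16 tested members were called higher and 5 lower (median change -0.06). Gclm, a subunit of the enzyme that starts glutathione synthesis, rose (1.68 ± 0.12) and G6pdx, the entry enzyme of the pentose phosphate pathway, fell (-0.58 ± 0.08). Of heat shock chaperones, 2 of 12 tested members were called higher and 2 lower (median change 0.02), with the co-chaperone gene Bag3 up by 1.06 ± 0.08 against the fall of Hspa8. Of contractile cytoskeleton genes, 1 of 17 tested members were called higher and 4 lower (median change -0.19): Rhob rose (1.01 ± 0.14) and vinculin (Vcl) fell (-0.84 ± 0.08). Of lysosome genes, 1 of 22 tested members were called higher and 3 lower (median change -0.14). Hamp, the iron hormone hepcidin, rose by 1.53 ± 0.36 on average, from only 5 to 14 untreated reads per genotype. In Smad3fl it went from 5 to 6 reads. Its mean treated level was 0.87 CPM in MyS3KO, 0.51 in the libraries labelled MyS2KO, 0.22 in Smad2fl and 0.094 in Smad3fl. The highest levels were thus in treated libraries with LyzM-Cre, as for Alb, and a link between the 2 genes was not tested.

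Among markers of other cells, 0 of 8 tested members were called higher and 3 lower (median change -0.01) for dendritic cells, where Zfp366 (-1.79 ± 0.37) and Batf3 (-1.14 ± 0.15) fell on average. Zfp366 was low, with 14 to 73 untreated reads per genotype, and went only from 14 to 12 reads in the libraries labelled MyS2KO. For stromal and endothelial cells 2 of 9 tested members were called higher and 2 lower (median change 0.50), and their sum was 57.7 to 183 CPM untreated and 58.8 to 151 treated. None of 3 tested T, B and NK cell markers was called, and of 13 mitochondrial transcripts 1 was called lower.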
